A study of Homo sapiens with 8 samples.

Results

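The Frizzled receptors are the 10 genes FZD1 to FZD10, taken from the expression table by gene symbol. The rule used none of their values, but the members were chosen with earlier results of these data known. All 10 were found among the 35940 symbols of the table (37951 Ensembl rows), each with 1 level per library in all 8 libraries. The cells were ESI017, a wild-type human embryonic stem cell line, so every value comes from 1 line. They were differentiated toward a posterior neural fate in the serum-free medium N2B27, and every group received the inhibitors SB at 10 µM and LDN at 100 nM, and recombinant WNT3A at 300 ng/mL was added at 34 h. The groups were 34 h (before WNT3A), 42 h, 50 h and 72 h (the last 3 with WNT3A), with 2 libraries in each, one from each of 2 independent differentiations that the labels also number as batches. There was no group kept without WNT3A among the samples analysed here, so a difference from 34 h holds elapsed time and WNT3A together, and these cannot be told apart. The study asks how WNT signalling sets anterior-posterior position in the nervous system.

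Frizzled proteins are seven-pass membrane receptors whose extracellular cysteine-rich domain binds the lipid-bearing WNT ligands. With the co-receptors LRP5 and LRP6 they recruit Dishevelled and stabilise beta-catenin, which acts with TCF/LEF factors on target genes. With ROR, RYK or PTK7, or with the planar cell polarity proteins, they signal without beta-catenin. The family is usually grouped by sequence into FZD1, FZD2 and FZD7, into FZD5 and FZD8, into FZD4, FZD9 and FZD10, and into FZD3 and FZD6. In the embryo graded WNT activity along the neural plate sets anterior against posterior fate, and several Frizzled genes are expressed regionally there.

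Levels are TPM, the share of a library's transcripts after scaling to gene length, so levels of different genes can be compared. TPM keeps no read number, so the depth behind each value is unknown. A library held 13860 to 14004 genes at 1 TPM or more, and mitochondrially encoded genes held 8.70% to 11.2% of the TPM. Changes are given on the log2(TPM + 1) scale of a limma fit over all 8 libraries, which understates the change of genes with low levels, and a gene was called changed at a Benjamini-Hochberg adjusted p under 0.05 over all 14908 tested genes. All 10 members passed the filter of at least 1 TPM in at least 2 libraries. FZD1 and FZD10 were under 1 TPM in both libraries at 34 h and passed only through later time points, so their being called has little weight in a count of members.

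The summed level of the pluripotency markers POU5F1, NANOG, SOX2, LIN28A, DPPA4, TDGF1 and PRDM14 went from between 3439 and 3461 TPM at 34 h to between 1887 and 1978 TPM at 72 h, and 3 of these 7 fell and 1 (SOX2) rose by limma at 72 h. Every marker count at 72 h in this paragraph stands against 12.7% of all tested genes raised and 11.3% lowered. The neural progenitor markers SOX1, PAX6, SOX3, HES5, NES, CDH2 and SOX21 summed to between 202 and 217 TPM at 34 h and between 441 and 501 TPM at 72 h, with 5 of 6 tested raised. POU5F1, the defining pluripotency factor, was still at 354 and 388 TPM at 72 h, and NANOG was at no more than 2.77 TPM in any library. The 6 mesoderm markers summed to 1.70 and 1.71 TPM before WNT3A, 10.8 to 14.9 TPM by 42 h, 9.33 to 12.1 TPM by 50 h and 3.07 to 3.39 TPM by 72 h, with TBXT as the main part and MSGN1 listed at 0 in all libraries. The 5 endoderm markers summed to 12.2 to 13.6 TPM before WNT3A and 0.598 to 0.920 TPM by 72 h, nearly all FOXA2, with SOX17 listed at 0 throughout. The 7 neuron markers summed to 241 to 341 TPM in single libraries, mostly TUBB3, and of the 5 tested STMN2, MAP2 and DCX rose at 72 h by limma (by 2.73, 1.21 and 0.80, the last called in 13 of 17 alternatives) and none fell. The 7 neural crest markers summed to 10.9 and 13.0 TPM before WNT3A, 6.41 and 9.07 TPM by 42 h, 7.68 and 8.61 TPM by 50 h and 14.4 and 16.7 TPM by 72 h, and of the 5 tested PAX3 and SNAI2 rose at 72 h (by 2.29 and 2.38) and FOXD3 fell by 2.48. STMN2, SNAI2, PAX3 and the progenitor marker PAX6 were under 1 TPM in both 34 h libraries and passed the filter only through later times, PAX3 and PAX6 only through those of 72 h. FOXD3, at 4.65 and 4.48 TPM for 34 h and under 1 TPM in every later library, passed only through the 34 h libraries, so the calls of PAX3, PAX6 and FOXD3 rest on the group that admitted them. The 5 surface ectoderm markers ran from 71.7 to 274 TPM in single libraries, nearly all KRT18, which fell. These marker levels moved over the same times as the Frizzled genes described here, and their part in the Frizzled changes was not tested. In bulk RNA, fewer cells of a type and less RNA per cell cannot be told apart.

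FZD5 and FZD8 fell after 34 h, and FZD1 and FZD9 rose. Bases upstream of the annotated starts of these genes are shown, for the genes that fell and for those that rose. Only bases upstream of both the RefSeq and the GENCODE start were printed, so the sequences do not cover the same stretch in each gene. FZD1 is cut to 181 bases at its GENCODE start, short of its RefSeq start. The FZD5 bases end at 207769907, away from its GENCODE start at 207769563. RefSeq promoter windows on GRCh38.p14 matched 5 of the 10 members (FZD1, FZD4, FZD5, FZD8 and FZD9). Each sequence is written 5′ to 3′ on the gene's own strand. Capitals mark every match to the GC box GGGCGG and to the CCAAT box CCAAT on either strand, so that CCGCCC and ATTGG mark matches on the opposite strand. Neighbouring GC box matches overlap by a base in FZD5.
FZD5 (chr2:207769907-207770156, minus strand): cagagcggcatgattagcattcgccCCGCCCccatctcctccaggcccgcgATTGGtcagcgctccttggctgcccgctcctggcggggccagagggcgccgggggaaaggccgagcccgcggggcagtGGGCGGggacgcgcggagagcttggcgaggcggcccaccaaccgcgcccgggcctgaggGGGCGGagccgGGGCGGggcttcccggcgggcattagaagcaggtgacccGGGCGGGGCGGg
FZD8 (chr10:35642297-35642546, minus strand): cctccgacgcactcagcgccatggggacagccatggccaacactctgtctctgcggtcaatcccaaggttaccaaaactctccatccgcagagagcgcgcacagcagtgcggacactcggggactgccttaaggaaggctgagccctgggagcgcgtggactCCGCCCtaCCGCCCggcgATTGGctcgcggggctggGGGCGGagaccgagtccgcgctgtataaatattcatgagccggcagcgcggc
FZD1 (chr7:91264183-91264363, plus strand): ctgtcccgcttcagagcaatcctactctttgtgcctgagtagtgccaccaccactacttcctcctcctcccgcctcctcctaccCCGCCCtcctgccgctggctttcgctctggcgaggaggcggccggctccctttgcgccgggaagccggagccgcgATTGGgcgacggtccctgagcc
FZD9 (chr7:73433528-73433777, plus strand): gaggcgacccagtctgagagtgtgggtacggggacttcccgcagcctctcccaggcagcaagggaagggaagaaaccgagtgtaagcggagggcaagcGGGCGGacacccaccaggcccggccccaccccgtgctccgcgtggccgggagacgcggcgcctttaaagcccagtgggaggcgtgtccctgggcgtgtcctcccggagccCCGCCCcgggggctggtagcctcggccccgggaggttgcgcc
Over the 250 bases before the RefSeq start, a GC box was found in all 5 members with a window, against 42.6% of 35116 promoter windows of the same length. A CCAAT box was found in FZD1, FZD4, FZD5 and FZD8 but not in FZD9, against 32.0% of all windows. The TCF/LEF letters CTTTGAT and CTTTGAA and the OTX letters TAATCC were in none of the 5 windows on either strand, against 2.26%, 3.80% and 5.62% of all windows. The windows had 65.2% to 80.8% G or C, against a median of 58% and quartiles of 46.4% and 68% over all windows, and FZD1 and FZD8, at 65.2%, lay between those quartiles. Genes that fell and genes that rose both had GC boxes, and a match or its absence is only a description of these letters.

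By limma, the 42, 50 and 72 h libraries differed from those of 34 h in 4, 5 and 6 of the 10 Frizzled genes. At 42 h FZD1 and FZD10 were raised and FZD5 and FZD8 lowered, where 1.78% of all tested genes were raised and 0.792% lowered. At 50 h FZD1, FZD2 and FZD10 were raised and FZD5 and FZD8 lowered, against 3.52% and 2.74% of all tested genes. At 72 h FZD1, FZD2, FZD3, FZD9 and FZD10 were raised and FZD5 lowered, against 12.7% and 11.3%. FZD1 and FZD10 passed the filter only through later times, so their calls carry little weight in every count of members in this paragraph. Without them none was raised at 42 h, only FZD2 at 50 h, and FZD2, FZD3 and FZD9 at 72 h. The split at 72 h was 5 raised and 2 lowered, with FZD8 as the added call, after TMM rescaling, after quantile normalization or with mitochondrial genes left out. Over all tested genes the calls of 72 h turned from 1900 raised and 1678 lowered to 1552 and 2003 after TMM rescaling and 1638 and 1796 after quantile normalization, and those of 50 h from 525 and 408 to 460 and 506 and to 466 and 474. The median change of the 10 genes was 0.24, 0.34 and 0.51 at 42, 50 and 72 h on the log2 scale, where the median over all tested genes was 0.01, 0.04 and 0.06. Without FZD1 and FZD10, the pair that passed the filter only through later times, the median of the other 8 was 0.09, 0.16 and 0.21. These comparisons share the 34 h libraries and are not independent of each other. Each called change had the same sign within both batches, such as 2.62 and 2.91 for FZD1 at 72 h, -1.33 and -1.07 for FZD5 at 72 h, and -1.21 and -1.04 for FZD8 at 42 h in replicates 1 and 2. These differences come from the libraries that gave the calls, so their shared sign is no separate support. Over the whole course limma's moderated F-test called 7 of the 10 (FZD1, FZD2, FZD3, FZD5, FZD8, FZD9 and FZD10), against 17.4% of all tested genes. Of these, FZD3 passed narrowly, with an adjusted F-test p of 0.0499 by limma that was 0.0677 with the replicate block and under 0.05 in 3 of 17 alternatives.

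**Figure D1:**
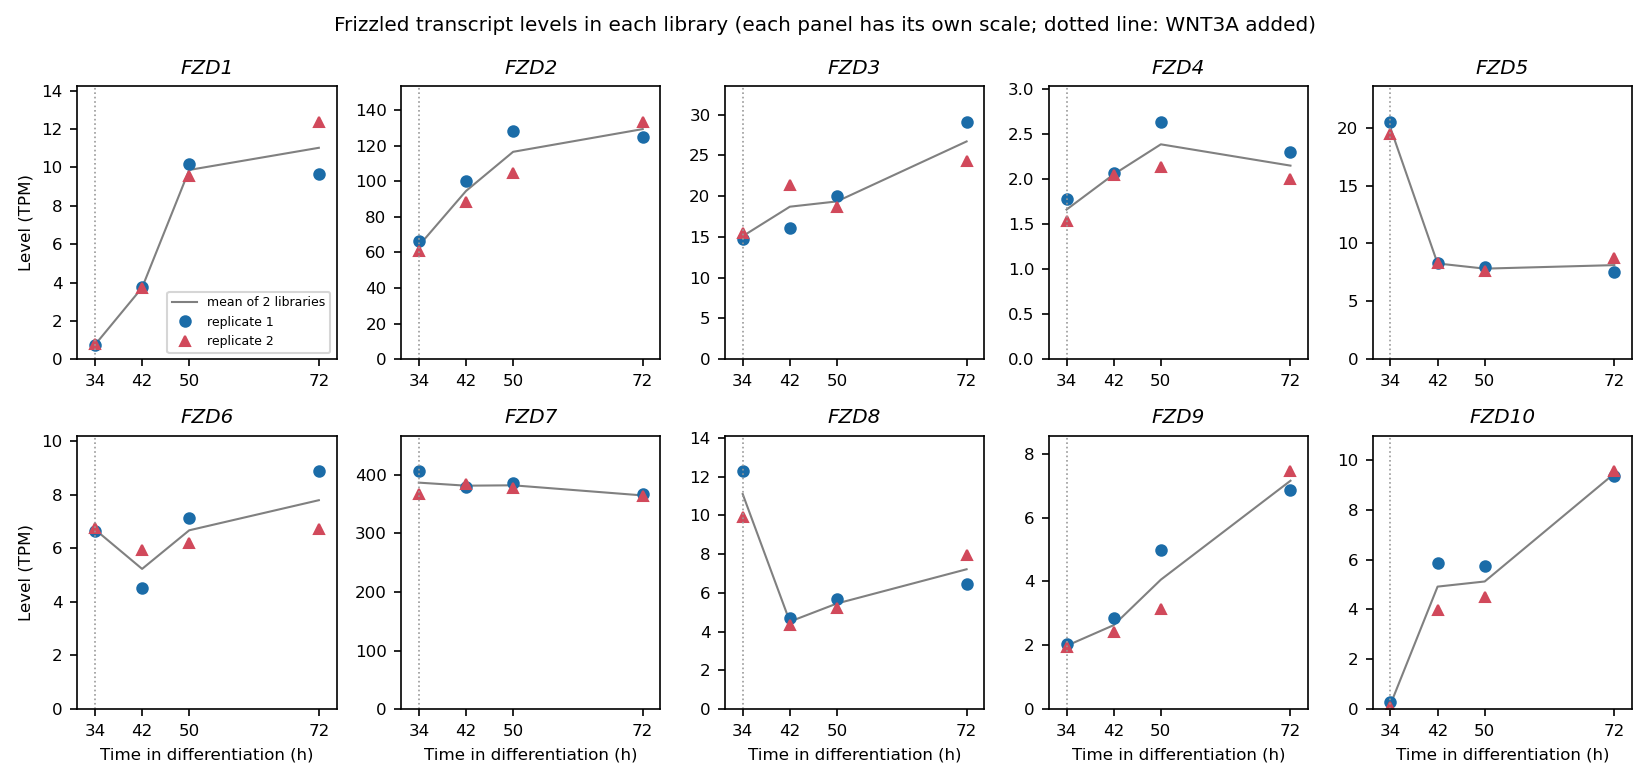
Level in TPM (vertical axis, a separate scale from 0 for each gene) of the 10 Frizzled genes against hours of differentiation (horizontal axis). Circles and triangles are the libraries of replicates 1 and 2, the line joins their means and the dotted line marks the addition of WNT3A at 34 h. FZD1 and FZD10 start under 1 TPM and reach 9.37 to 12.4 TPM at 72 h, FZD5 drops from about 20 to about 8 TPM by 42 h, and FZD7 stays between 363 and 406 TPM.

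FZD7 (chr2:202034587-202038445, plus strand, GRCh38, 1 exon) is a receptor of WNT signalling that is prominent in human pluripotent stem cells. It was the most abundant Frizzled transcript in every library. The 34 h libraries held 406 and 368 TPM, the 42 h libraries 379 and 384 TPM, the 50 h libraries 387 and 378 TPM and the 72 h libraries 367 and 363 TPM. All 8 libraries lay in this narrow band, and the 34 h libraries spanned the libraries of 42 and 50 h. The change at 72 h was -0.08 ± 0.08 (limma SE) with a 95% interval from -0.26 to 0.09 and an adjusted p of 0.474 by limma. Its intervals at 42 h (-0.19 to 0.16) and 50 h (-0.19 to 0.16) were equally narrow, so a change of more than about 0.26 in either direction lay outside all 3 intervals.

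FZD2 (chr17:44557459-44559570, plus strand, 1 exon), which takes part in both beta-catenin and WNT5A signalling, was the next most abundant member. Before WNT3A the pair of libraries stood at 66.5 and 60.9 TPM, the 42 h pair at 100.4 and 88.6 TPM, the 50 h pair at 128 and 105 TPM and the 72 h pair at 125 and 133 TPM. Both libraries of each later time point lay above both libraries of 34 h. By limma it rose by 0.85 ± 0.12 (SE, adjusted p = 0.00523) at 50 h and by 1.01 ± 0.12 (adjusted p = 0.000848) at 72 h, where the mean level was 2.03 times that at 34 h. At 42 h the change was 0.56 ± 0.12 with an adjusted p of 0.0607 by limma, and 0.0464 with the replicate number as a block. The 42 h call was also made after quantile normalization (0.0416), with a mean of at least 5 TPM required (0.0469), with mitochondrial genes left out (0.0497), and without replicate 1 (0.0376) or replicate 2 (0.0373) of 50 h.

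FZD1 (chr7:91264364-91271326, plus strand, 1 exon), a beta-catenin pathway receptor whose promoter sequence is shown with the others, rose from below 1 TPM. The 34 h libraries held 0.729 and 0.775 TPM, the 42 h libraries 3.76 and 3.70 TPM, the 50 h libraries 10.2 and 9.54 TPM and the 72 h libraries 9.66 and 12.4 TPM. Libraries of 34 h, 42 h and the later times did not overlap, while those of 50 h and 72 h did. Against the mean of 34 h, the means of 42, 50 and 72 h were 4.96, 13.1 and 14.7 times as high. The limma changes for these times were 1.43, 2.63 and 2.77 (SE 0.18 each), with adjusted p-values of 0.00455, 0.000147 and 2.93e-05. The 42 h change was 2.17 when the pseudocount was 0.1, and fitting 34 and 42 h alone gave an adjusted p of 0.0520 by limma.

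FZD5 (chr2:207762586-207769563, minus strand, 2 exons), a receptor with known roles in the developing eye and forebrain, fell by 42 h. Before WNT3A the pair of libraries stood at 20.5 and 19.4 TPM, the 42 h pair at 8.28 and 8.27 TPM, the 50 h pair at 8.01 and 7.65 TPM and the 72 h pair at 7.55 and 8.71 TPM. All 6 later libraries lay below the 2 libraries of 34 h, and the 72 h libraries spanned those of 42 and 50 h. For 42, 50 and 72 h the limma changes were -1.18, -1.25 and -1.20 (SE 0.14 each), with adjusted p-values of 0.00352, 0.00150 and 0.000651, and the mean level was 0.407 times that of 34 h by 72 h. All 3 calls were made in each of the 18 alternatives.

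FZD8 (chr10:35638249-35642278, minus strand, 1 exon), the member closest to FZD5 in sequence and likewise a receptor of the anterior neural plate, also fell. The 34 h libraries held 12.3 and 9.94 TPM, the 42 h libraries 4.72 and 4.32 TPM, the 50 h libraries 5.66 and 5.24 TPM and the 72 h libraries 6.47 and 7.97 TPM. Each later library lay below both libraries of 34 h, and the libraries of 42, 50 and 72 h did not overlap. By limma the change was -1.13 ± 0.18 (adjusted p = 0.0140) at 42 h and -0.90 ± 0.18 (0.0216) at 50 h. At 72 h it was -0.56 ± 0.18 with an adjusted p of 0.0522 by limma, and this p was 0.0338 after TMM rescaling or quantile normalization, 0.0427 without a variance trend and 0.0482 with mitochondrial genes left out. Over the 18 alternatives the change ran from -1.27 to -0.99 at 42 h and from -1.04 to -0.76 at 50 h, but the calls were lost when a compared library was left out, which leaves 1 library at that time that is assumed to vary like the other groups. The adjusted p of limma at 42 h was 0.114 and 0.0513 without replicate 1 or 2 of 34 h, and 0.0687 and 0.101 without replicate 1 or 2 of 42 h. At 50 h it was 0.137 and 0.0586 without replicate 1 or 2 of 34 h, and 0.0779 and 0.0923 without replicate 1 or 2 of 50 h. Neither call was made without the filter on low values (0.0514 and 0.0591) or with the compared time points fitted alone (0.0781 and 0.0805), and the F-test call was lost without replicate 1 of 34 h (0.0712). The sum of FZD5 and FZD8 was 31.1 ± 2.41 TPM (SD, n = 2) before WNT3A, 12.8 ± 0.287 TPM by 42 h, 13.3 ± 0.550 TPM by 50 h and 15.3 ± 1.88 TPM by 72 h.

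FZD10 (chr12:130162459-130165740, plus strand) is a receptor known from the dorsal neural tube and from the posterior embryo. Before WNT3A the pair of libraries stood at 0.265 and 0.104 TPM, the 42 h pair at 5.85 and 3.98 TPM, the 50 h pair at 5.76 and 4.49 TPM and the 72 h pair at 9.37 and 9.54 TPM. Both 34 h libraries were the lowest of any Frizzled value in the table, the libraries of 42 and 50 h overlapped, and both at 72 h lay above them. For 42, 50 and 72 h the limma changes were 2.31, 2.37 and 3.15 (SE 0.22 each), with adjusted p-values of 0.00136, 0.000655 and 4.76e-05. A pseudocount of 0.1 gave 4.18, 4.25 and 5.13, so the size depends on how the low 34 h values are treated.

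FZD9 (chr7:73433783-73436120, plus strand, 1 exon), a receptor expressed in neural precursors, had higher levels at each successive time point. Replicates 1 and 2 gave 2.03 and 1.94 TPM for 34 h, 2.84 and 2.42 TPM for 42 h, 4.98 and 3.13 TPM for 50 h and 6.86 and 7.44 TPM for 72 h. The libraries of the 4 time points did not overlap. The limma changes for 42, 50 and 72 h were 0.28, 0.74 and 1.45 (SE 0.22 each), with adjusted p-values of 0.686, 0.1001 and 0.00259, so only the last was called, where the mean was 3.61 times that of 34 h. Its F-test call was lost without replicate 1 (adjusted p = 0.0651 by limma) or replicate 2 (0.0771) of 72 h.

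FZD4 (chr11:86945679-86955391, minus strand, 2 exons), the receptor of Norrin as well as of WNT ligands, was low throughout. The 34 h libraries held 1.78 and 1.54 TPM, the 42 h libraries 2.06 and 2.04 TPM, the 50 h libraries 2.63 and 2.13 TPM and the 72 h libraries 2.30 and 1.99 TPM. The change at 72 h was 0.24 with a 95% interval from -0.24 to 0.72 and an adjusted p of 0.437 by limma. The gene overlaps PRSS23 on the opposite strand over 7232 bases in GENCODE. PRSS23 was at 8.82 to 30.4 TPM, and whether the counting used strand is not given in the sources used here, so the level of FZD4 is uncertain.

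FZD3, a receptor of planar cell polarity and of axon guidance, and FZD6, a planar cell polarity receptor, form the remaining group and are spliced genes with up to 8 exons. For FZD3, replicates 1 and 2 gave 14.7 and 15.5 TPM for 34 h, 16.1 and 21.4 TPM for 42 h, 20.1 and 18.6 TPM for 50 h and 29.1 and 24.3 TPM for 72 h. All later libraries lay above 34 h, those of 42 and 50 h overlapped and those of 72 h were the highest. By limma it rose at 72 h by 0.78 ± 0.16 (adjusted p = 0.0107), and this p was 0.0579 without replicate 1 of 34 h and 0.0781 without replicate 1 of 72 h. For FZD6 they gave 6.65 and 6.76 TPM, 4.51 and 5.95 TPM, 7.13 and 6.21 TPM, and 8.87 and 6.72 TPM in the same order. Its libraries at 50 and 72 h overlapped those of 34 h, and its change at 72 h was 0.18 with a 95% interval from -0.26 to 0.62 and an adjusted p of 0.541 by limma.

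**Figure D2:**
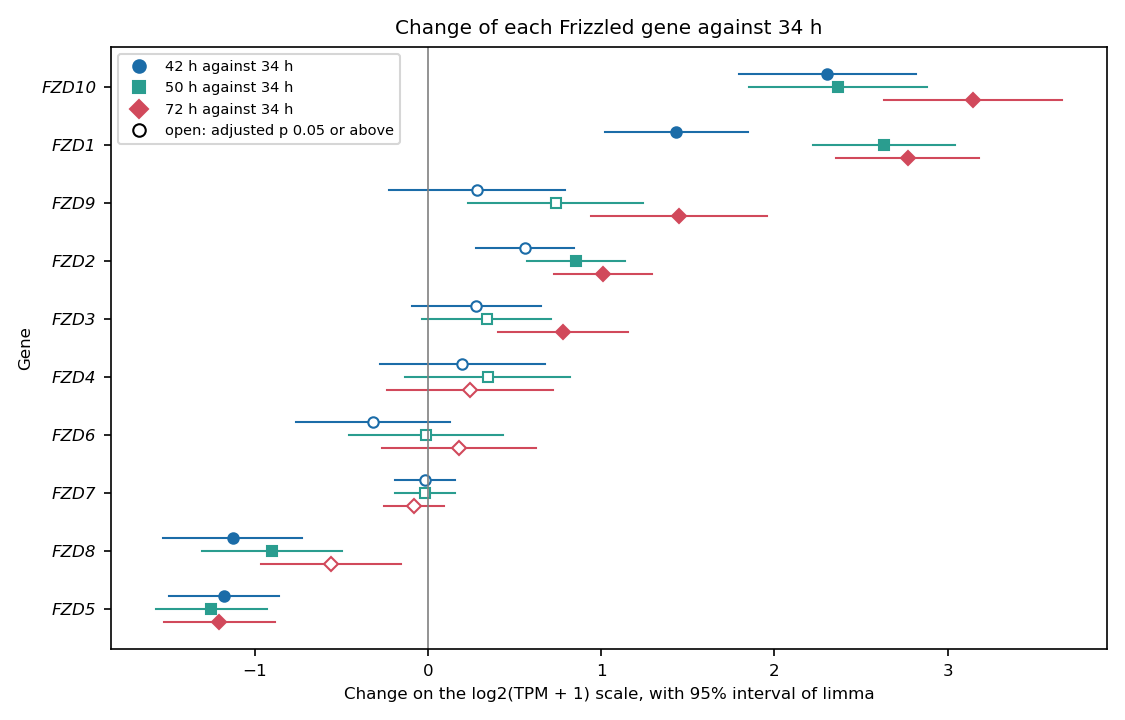
Change of each Frizzled gene against 34 h on the log2(TPM + 1) scale (horizontal axis) at 42 h (circles), 50 h (squares) and 72 h (diamonds), with the 95% interval of limma. Filled symbols have an adjusted p under 0.05. FZD10 and FZD1 lie farthest to the right at 72 h (3.15 and 2.77), FZD5 lies near -1.2 at all times, and FZD7 has the narrowest intervals, around 0.

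Between neighbouring later time points limma called none of the 10 genes. From 42 h to 50 h, where 0.0604% of all tested genes were raised and 0.0335% lowered, FZD1 and FZD2 had an unadjusted p under 0.05, as did 9.35% of all tested genes. The change of FZD1 in this step was 1.20 ± 0.18 with an adjusted p of 0.0639 by limma, and 0.0446 when the variance was fitted without a mean trend. From 50 h to 72 h, where 2.92% of all tested genes were raised and 4.41% lowered, FZD3, FZD9 and FZD10 had an unadjusted p under 0.05, as did 22.4% of all tested genes. These 3 had changes of 0.44 ± 0.16, 0.71 ± 0.22 and 0.78 ± 0.22, with adjusted p-values of 0.155, 0.0983 and 0.0766 by limma, and none was called in any alternative. The mean of FZD8 was 4.52 TPM for 42 h and 7.22 TPM for 72 h, and its steps of 0.23 and 0.34 had adjusted p-values of 0.734 and 0.296 by limma.

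The make-up of the Frizzled transcripts differed between time points, with FZD7 holding a smaller share of the sum at 72 h. The 10 genes summed to 508 ± 33.1 TPM (SD, n = 2) before WNT3A, 526 ± 1.69 TPM by 42 h, 560 ± 28.3 TPM by 50 h and 574 ± 2.56 TPM by 72 h. FZD7 held 76.1% ± 0.352 (SD, n = 2) of this sum at 34 h, 72.5% ± 0.968 at 42 h, 68.4% ± 2.32 at 50 h and 63.6% ± 0.722 at 72 h. FZD2 held 12.5% ± 0.0345 at 34 h and 22.5% ± 0.928 at 72 h. FZD1, FZD2 and FZD7 together held 88.8% at 34 h and 88.0% at 72 h, so most of the share that FZD7 lost was held by FZD2 and FZD1. The share of FZD5 and FZD8 went from 6.12% ± 0.0768 to 2.67% ± 0.316, that of FZD4, FZD9 and FZD10 from 0.752% ± 0.0194 to 3.27% ± 0.0401, and that of FZD3 and FZD6 from 4.30% ± 0.398 to 6.01% ± 0.889. Without FZD7 the family summed to 121 ± 6.10 TPM before WNT3A and 209 ± 5.08 TPM by 72 h. These shares follow from the levels already given and were not tested on their own.

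**Figure D3:**
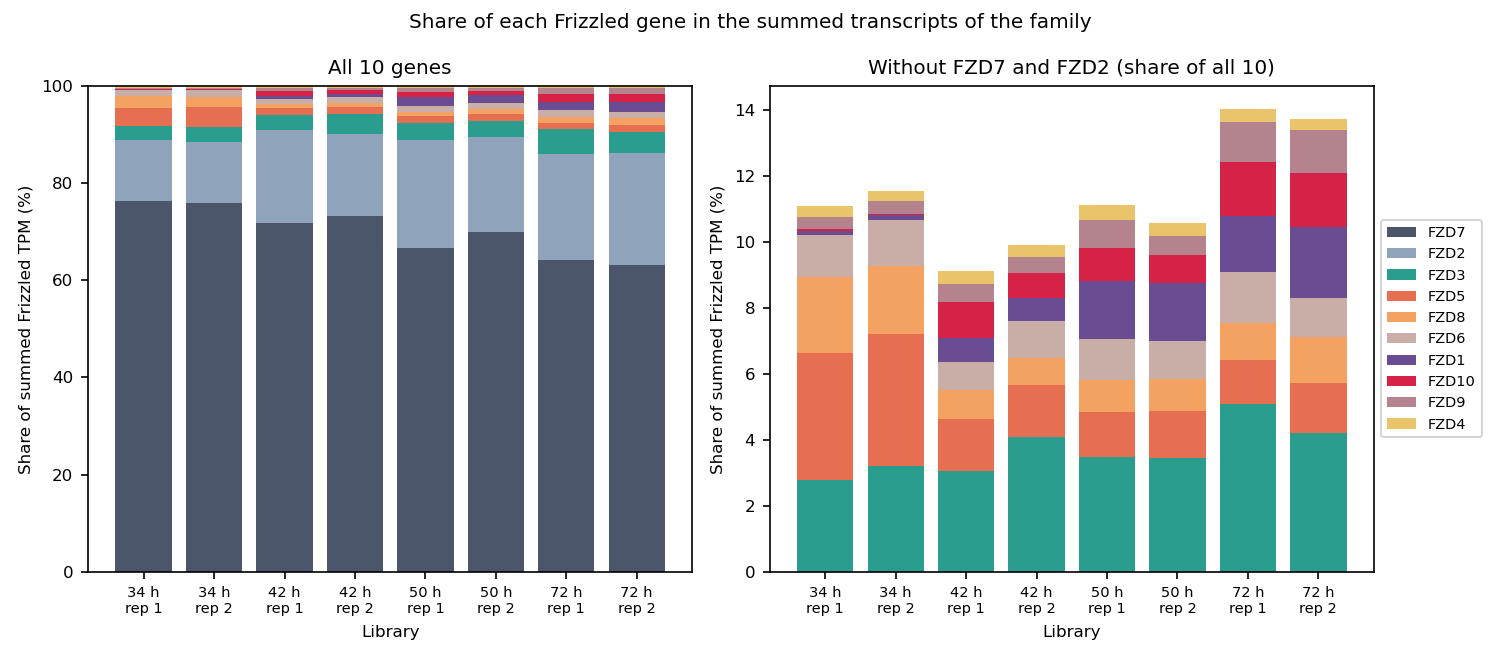
Percent of the summed Frizzled TPM held by each gene (vertical axis, stacked from 0) in each of the 8 libraries (horizontal axis). The left panel holds all 10 genes and the right panel the same shares without FZD7 and FZD2, on a wider scale. FZD7 goes from about 76% to about 64%, FZD5 and FZD8 narrow after 34 h, and FZD1, FZD10 and FZD9 widen by 72 h.

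FZD7 and FZD2 were the most abundant members at every time, and the order below them changed. At 34 h the order was FZD7, FZD2, FZD5, FZD3, FZD8, FZD6, FZD9, FZD4, FZD1 and FZD10, and no neighbours in it had overlapping libraries. At 42 h FZD3 stood above FZD5, and FZD6, FZD10 and FZD8 overlapped in sequence at 5.23, 4.92 and 4.52 TPM. At 50 h FZD1 followed FZD3 directly, and FZD8, FZD10 and FZD9 overlapped at 5.45, 5.12 and 4.05 TPM. At 72 h the order was FZD7, FZD2, FZD3, FZD1, FZD10, FZD5, FZD6, FZD8, FZD9 and FZD4, and FZD5, FZD6, FZD8 and FZD9 overlapped from neighbour to neighbour at 8.13 to 7.15 TPM. FZD1 and FZD10 thus went from the last places at 34 h to the fourth and the fifth at 72 h, and FZD5 from the third to the sixth.

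For each member called by the F-test, the 3 genes outside the family with the highest Pearson r over the 8 libraries were taken among 10843 genes with a mean of at least 5 TPM. They describe likeness over libraries that share a time course and carry no test. The genes like FZD1 included MMP2 (r = 0.990), a secreted matrix protease, and STOML3 (r = 0.988). FZD10 was nearest to ZEB2 (r = 0.993), PAMR1 and ROR2 (r = 0.989), the last a WNT co-receptor. FZD5 was nearest to SENP2 (r = 0.983), ANOS1 and GLIPR2, and FZD8 to TCF7L2 (r = 0.957), TFDP1 and SENP2, so that SENP2 was in both lists. FZD2 was nearest to IER5L (r = 0.995), CITED2 and SLX4, FZD9 to HILPDA (r = 0.995), IER5 and ADAMTS7, and FZD3 to ATP2B1 (r = 0.987), BRD8 and ZNF664.

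Among the 19 WNT ligand genes, 10 passed the filter, and WNT3A itself was at no more than 0.242 TPM in any library. By limma 2 rose and 1 fell at 42 h (5 calls with a pseudocount of 0.1), where 1.78% of all tested genes were raised and 0.792% lowered, and 3 rose and 3 fell at 72 h. The counts at 72 h in this and the following lists stand against 12.7% of all tested genes raised and 11.3% lowered. For WNT5B, a ligand that mainly acts without beta-catenin, replicates 1 and 2 gave 1.69 and 0.918 TPM for 34 h, 52.9 and 42.1 TPM for 42 h, 49.6 and 43.9 TPM for 50 h and 12.7 and 16.3 TPM for 72 h. WNT10B rose by 3.51 ± 0.19 (adjusted p = 9.16e-05 by limma) at 42 h and had a change of 0.40 (0.160) at 72 h. WNT8A, a ligand of the posterior embryo, rose by 5.09 at 72 h, from 0.402 and 0.454 TPM to 49.4 and 45.8 TPM, and WNT3 rose by 2.26 (2.17 to 4.16 over the alternatives). Like RNF43 and DKK4 in the lists that follow, WNT8A and WNT3 were under 1 TPM in both 34 h libraries and passed the filter only through later times, so their calls have little weight in a count. At 72 h WNT4 fell by 1.30, WNT7B fell by 2.25 (-4.53 to -1.97 over the alternatives), and WNT5A, a ligand of ROR2, fell by 1.18 (adjusted p = 0.0119 by limma, called in 16 of 18 alternatives), from 12.2 and 10.5 TPM to 3.68 and 5.35 TPM.

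Of the co-receptors that work with Frizzled proteins, 6 of 7 were tested and 2 rose at 72 h. ROR2, a receptor tyrosine kinase for WNT5A, went from 5.33 and 4.09 TPM before WNT3A to 85.5 and 87.6 TPM by 72 h, a rise of 3.95 ± 0.20 (adjusted p = 9.05e-06 by limma), and it already rose by 2.49 at 42 h. PTK7, a co-receptor of planar cell polarity, rose by 1.11 at 72 h from 120 and 96.4 TPM to 226 and 241 TPM. LRP5, at 13.2 to 17.2 TPM, had a change at 72 h of -0.19 (adjusted p = 0.367 by limma), and LRP6, at 16.4 to 30.2 TPM, had one of 0.54 (0.0866). ROR1 and RYK were not called at 72 h, at 65.0 to 68.1 and 47.8 to 50.4 TPM. At 50 h ROR1 was raised (adjusted p = 0.0223 by limma, called in 13 of 18 alternatives). It went from 58.9 and 49.1 TPM at 34 h to 79.1 and 82.3 TPM at 50 h.

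Frizzled proteins are removed from the cell surface by the ubiquitin ligases RNF43 and ZNRF3, which R-spondins and their LGR receptors hold back. In this list 6 of 9 genes were tested, and 3 rose at 72 h by limma. For RNF43, also a WNT target gene, replicates 1 and 2 gave 0.402 and 0.382 TPM for 34 h, 11.8 and 13.6 TPM for 42 h, 16.7 and 13.1 TPM for 50 h and 12.3 and 13.2 TPM for 72 h, with all later libraries above both of 34 h. Its change at 42 h was 3.29 ± 0.17 (adjusted p = 9.16e-05 by limma). ZNRF3 rose by 1.09 at 72 h. LGR4 fell by 0.62 at 42 h (adjusted p = 0.0492 by limma, called in 6 of 18 alternatives), from 52.5 and 50.2 TPM to 31.1 and 35.4 TPM, and rose by 0.84 at 72 h, to 103 and 83.3 TPM. LGR5 and RSPO3 were at no more than 0.145 and 0.0979 TPM in any library, and RSPO4 was at 5.69 to 8.87 TPM with no call.

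Of 17 extracellular and membrane inhibitors, 14 were tested, and 3 rose and 3 fell at 72 h, where 12.7% of all tested genes were raised and 11.3% lowered. The secreted Frizzled-related proteins carry a domain like that of the receptors and bind WNT ligands outside the cell. At 34 h SFRP1 was at 402 and 350 TPM and SFRP2 at 276 and 288 TPM. SFRP1 fell by 0.68 at 50 h (adjusted p = 0.00605 by limma) and by 0.39 at 72 h (0.0254, called in 14 of 18 alternatives). By limma at 72 h SFRP2 fell by 1.11, SFRP5 fell by 1.45 (-2.69 to -1.16 over the alternatives), and FRZB, of the same family, rose by 2.07 from 3.35 and 4.37 TPM to 18.0 and 20.9 TPM. APCDD1, a membrane WNT inhibitor, rose by 3.10 at 72 h. WIF1, the other raised gene of this list, was called at 72 h with an adjusted p of 0.0100 by limma and in 15 of 18 alternatives. It went from 2.49 and 3.26 TPM at 34 h to 6.42 and 6.69 TPM at 72 h. DKK4, which binds LRP5 and LRP6, was at 5.19 and 4.49 TPM at 42 h, at no more than 0.412 TPM in any other library, and listed at 0 in both libraries of 72 h. It passed the filter only through the 42 h libraries, so its call there (a change of 2.47, 2.40 to 5.12 over the 15 alternatives in which it was tested) rests on the group that admitted it. At 42 h the list had 4 raised and 3 lowered genes, against 1.78% and 0.792% of all tested genes, and 11 of 18 alternatives moved that count by more than 1.5 times, down to 1.

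Inside the cell, Dishevelled binds the activated receptor. DVL1, DVL2 and DVL3, at 34.9 to 53.5 TPM, were not called at 72 h, with changes at 72 h of 0.19, 0.02 and -0.09 and adjusted p-values of 0.420, 0.918 and 0.699 by limma. Of the 8 genes of Dishevelled and its regulators, 2 rose and 1 fell at 72 h. NKD1 and DACT1, which bind Dishevelled, rose by 4.41 and 3.20 at 42 h and by 5.26 and 3.05 at 72 h. In the destruction complex, which degrades beta-catenin, AXIN2 (1.85) and APC2 (1.27) rose among 9 genes at 72 h, while CTNNB1, the beta-catenin gene, had a change of -0.05 (adjusted p = 0.857 by limma). Of the 4 TCF/LEF factors, LEF1 (1.82) and TCF7 (1.37) rose and TCF7L1 fell by 1.05 at 72 h. TCF7L2 was not called at 72 h (adjusted p = 0.0911 by limma). It was lowered at 42 h (0.0226, called in 12 of 18 alternatives) and at 50 h (0.0123, called in 14 of 18).

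Of 9 planar cell polarity genes, 2 rose and 1 fell at 72 h, against 12.7% raised and 11.3% lowered over all tested genes, and with 9 genes this count is close to that background. CELSR1 and CELSR2, cadherins that bridge Frizzled and VANGL across neighbouring cells, rose by 1.36 and 1.23, and PRICKLE1 fell by 0.49 (adjusted p = 0.0360 by limma, called in 10 of 18 alternatives). VANGL2, the partner that opposes Frizzled at the membrane, had a change of 0.22 (adjusted p = 0.164 by limma) at 47.6 to 59.1 TPM over the 34 and 72 h libraries. Among 5 tested glypicans, which hold WNT ligands at the cell surface, GPC4 fell by 2.35 and GPC3 fell by 0.71 at 72 h while GPC1 rose by 0.84 (adjusted p = 0.0227 by limma, called in 14 of 18 alternatives). In the Norrin and WNT7 receptor complexes that use FZD4, NDP and ADGRA2 did not pass the filter, RECK was not called, and TSPAN12 rose by 0.74 at 72 h (adjusted p = 0.0347 by limma, called in 13 of 18 alternatives). SMO, the Hedgehog pathway member of the same receptor class, rose by 0.48 at 72 h (0.0244 by limma, called in 14 of 18 alternatives).

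**Figure D4:**
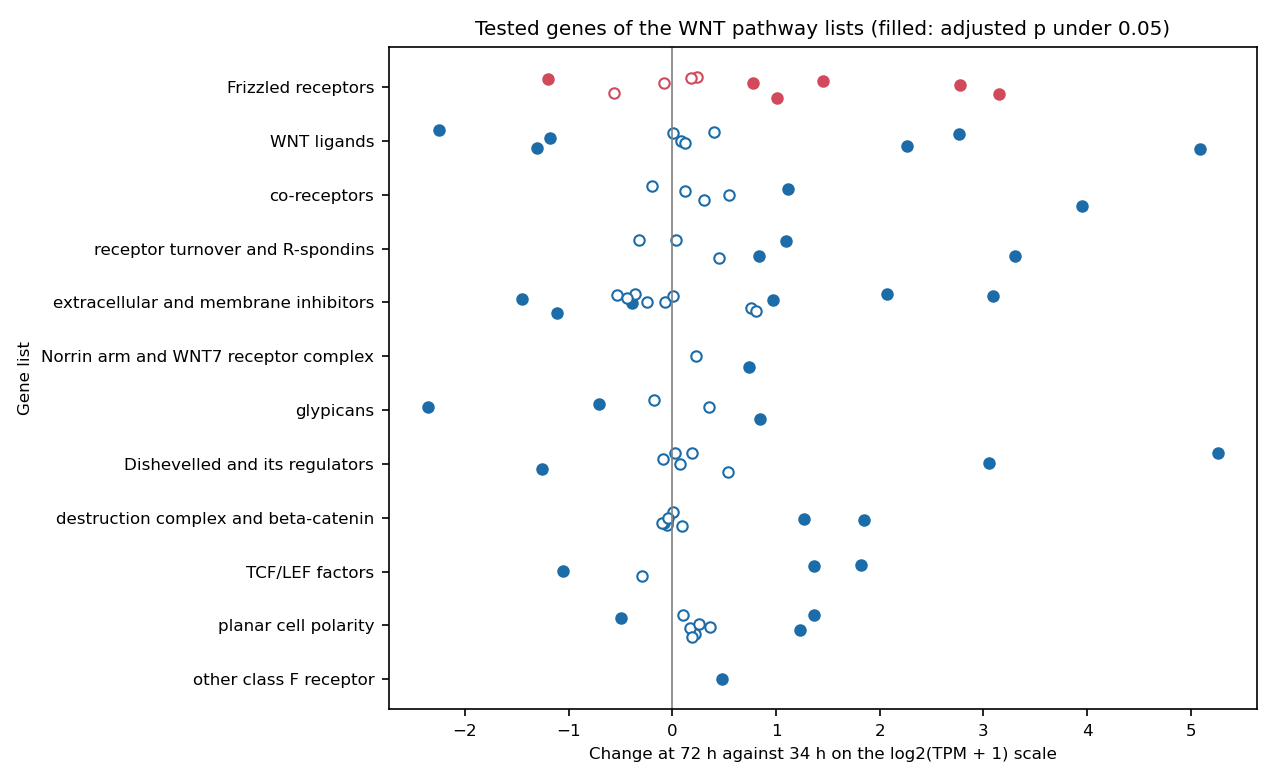
Change at 72 h against 34 h on the log2(TPM + 1) scale (horizontal axis) for each tested gene of the WNT pathway lists (vertical axis), with the Frizzled genes in red at the top. Filled points have an adjusted p under 0.05 by limma and the height of a point within a list has no meaning. The Frizzled genes span -1.20 to 3.15, the points of Dishevelled and its regulators reach 5.26 (NKD1), and 7 of the 9 destruction complex genes lie near 0 with open points.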

How the data were processed

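Poly(A) RNA was sequenced in 8 libraries, 2 per time point. The authors deposited TPM for each Ensembl gene in 1 table, and Salmon 1.9.0 and GRCh38 are named in the submitters' processing notes. The annotation, filters and strandedness are not given in the sources used here. TPM was summed by symbol and log2(TPM + 1) was fitted with limma 3.58.1 (R 4.3.3), with 1 mean per time point, a variance trend and 4 residual degrees of freedom. The fit was tested on simulated data. Positions are 1-based, from GENCODE release 29 (GRCh38), and promoters are from RefSeq (GRCh38.p14), printed upstream of the starts in both annotations.

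The members and gene lists were chosen with earlier results of these data known. Named genes are the members, the listed genes and, for each member called by the F-test, the 3 genes most like it, of which 1 is not reported here. Replicate numbers pair libraries by the batch label. Across genes, replicate differences correlated at 0.0949 (34 and 42 h), 0.195 (34 and 50 h), 0.142 (42 and 50 h), and -0.0445, -0.0779 and -0.104 (72 h with 34, 42 and 50 h). Alternatives were another pseudocount (0.1), filter, scaling, variance, sample set, replicate block, row handling, omission of mitochondrial genes, and leaving out each library.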

Additional observations from a re-analysis of the deposited data

How the results depend on the processing

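Of the alternative values for member changes called by limma, 251 stayed called in the same direction and 15 were no longer called. For changes not called, 592 stayed so, 11 became called and 16 changed sign. The count of members changed at 42 h against 34 h was 2 instead of 4 when these time points were fitted alone, and that of 50 h against 42 h was 1 instead of 0 when the variance had no mean trend. With the replicate block FZD2 at 42 h became called (adjusted p = 0.0464 by limma), FZD3 lost its F-test call (0.0677), and no other member call changed. No sign change touched a called value. FZD7 from 42 to 50 h was 0.0023 and became -0.036 after TMM rescaling, -0.018 after quantile normalization and -0.013 with mitochondrial genes left out. Leaving out 1 library at a time moved FZD7 between -0.089 and 0.053 at 42 h, between -0.086 and 0.056 at 50 h, and between -0.015 and 0.019 from 42 to 50 h. It moved FZD6 at 50 h between -0.096 and 0.079, and, from 42 to 50 h, FZD3 between -0.14 and 0.25 and FZD10 between -0.17 and 0.29. From 50 to 72 h it moved FZD4 between -0.21 and 0.0054, FZD1 between -0.027 and 0.30 and FZD5 between -0.046 and 0.14. Of 55 pathway list counts, 19 moved by over 1.5 times in at least 1 alternative. Over all tested genes the calls from 42 to 50 h were 9 raised and 5 lowered, and 9 and 10 after TMM rescaling. The calls against 34 h over all tested genes were 384, 933 and 3578 at 42, 50 and 72 h, and ran from 160 to 403, 412 to 966 and 1840 to 3661 over the alternatives. Depth is unknown, so counting error at low levels, such as FZD10 at 34 h, has no estimate.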
